A study of Mus musculus with 9 samples.

Results

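Man2a2, Mgat5, B4galt1, B3gnt2 and Fut8, which encode Golgi enzymes of N-glycan branching, polylactosamine extension and core fucosylation, were followed across CD8 T cells under deletion and anergy conditions and naive CD8 T cells. They are 5 of the 909 genes that could be named on the array, and they were found by matching the RefSeq accession in each probe set's identifier to a gene table. Each of the 5 had 1 probe set among the 1246 on the array. RNA came from purified CD8 T cells of female mice of the B10D2 strain that carried a transgenic T cell receptor, and it was measured on 9 single-colour GLYCOv4 arrays, an Affymetrix design for glycosylation genes. Deletion cells had been stimulated in vivo with a weak signal of the antigen that their receptor recognises, anergy cells with a strong signal of it, and naive cells were the unstimulated control, with 3 arrays in each group. The study asked whether glycosylation transcripts differ between cells on the way to deletion and cells on the way to anergy. The sources used here give neither the receptor's name nor the antigen dose, the time after stimulation or any pooling of animals. The labels only number the replicates, so each p-value reflects the spread among these arrays, and this spread may be technical.

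N-linked glycans reach the Golgi as mannose-rich chains, and alpha-mannosidase II enzymes trim them so that GlcNAc branches can be added. Mgat5 adds the beta-1,6-linked branch, galactosyltransferases such as B4galt1 cap the branches with galactose, and B3gnt2 adds the next GlcNAc, which, alternated with galactose, gives polylactosamine. Fut8 adds fucose to the innermost GlcNAc, the core fucose. Galectins bind the galactose-ended antennae, and in mice that lack Mgat5 or Fut8 T cell receptor signalling is altered.

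Against naive cells the members moved in both directions. Man2a2 and B4galt1 were lower in deletion and in anergy cells, B3gnt2 was higher in both, Fut8 was higher in anergy cells, and Mgat5 passed in no comparison. In deletion against naive cells 1 of the 5 rose, 2 fell and 2 did not pass, beside 19% of all 1246 probe sets (8.51% higher, 10.5% lower) past the threshold of 0.05 for limma's Benjamini-Hochberg adjusted p. In anergy against naive cells 2 rose, 2 fell and 1 did not pass, beside 26.8% of all probe sets (10.8% higher, 16.1% lower). In deletion against anergy cells limma called 0 of the 5, beside 3.37% of all probe sets (2.09% higher, 1.28% lower), and 1 of the 5 (Man2a2) had an unadjusted p below 0.05, beside 15.1% of all probe sets. Both comparisons with naive cells use the same 3 naive arrays, so they are not independent of each other. The arrays of the 2 groups compared did not overlap for 1 of the 5 in deletion against anergy (16.6% of all probe sets), 4 in deletion against naive (31.5%) and 4 in anergy against naive cells (33.9%). In RNA from a whole cell preparation, fewer cells that express a gene and less of its RNA per cell cannot be told apart.

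Correlations across probe sets between replicates of the same group were 0.995 to 0.998. The residuals of anergy replicate 3 were the most widely spread (SD 0.166, log2), beside 0.094 to 0.128 on the other 8 arrays. Of 9 markers of T cell identity only Cd2 was measured, at 9.82 to 10.38 in deletion cells, 9.33 to 9.48 in anergy cells and 11.53 to 11.68 in naive cells, and Cd3e and Cd8a were not analysed here. The listed genes of CD4 and regulatory T cells were not analysed here either. Of 6 measured effector genes, 5 rose in each stimulated group, while Ccl5 fell in anergy cells (-0.73 on the log2 scale) and had -0.45 in deletion cells, without a call. Of 4 measured genes of naive T cells, 3 fell in deletion cells and 4 in anergy cells. The summed level of 4 measured B cell markers (of 9 listed) was 8.66 to 9.17 in deletion cells, 8.55 to 8.76 in anergy cells and 9.25 to 9.41 in naive cells on the log2 scale. The sum over 9 measured markers of macrophages and dendritic cells (of 16 listed) was 7.50 to 7.77 in deletion, 7.54 to 7.59 in anergy and 7.84 to 7.89 in naive cells. Both sums were higher on every naive array than on any stimulated one, but their genes differed in direction. Cd72 fell (-1.56 in deletion and -1.64 in anergy against naive cells), Cd22 rose (1.17 and 0.98), Cxcr5 rose in deletion cells (0.64), and of the 9 macrophage and dendritic markers only Ly75 passed, lower in both groups. The marker measured for natural killer cells, Klra8, lay at 3.07 to 3.58 on the 9 arrays and did not pass. Siglecf, the marker measured for granulocytes, was higher in both stimulated groups, at 2.56 to 2.72 in deletion cells, 2.56 to 2.86 in anergy cells and 2.22 to 2.43 in naive cells. Klra8 and Siglecf thus lay below the array medians of 4.44 to 4.58. The part of these markers in the results below was not tested.

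**Figure D1:**
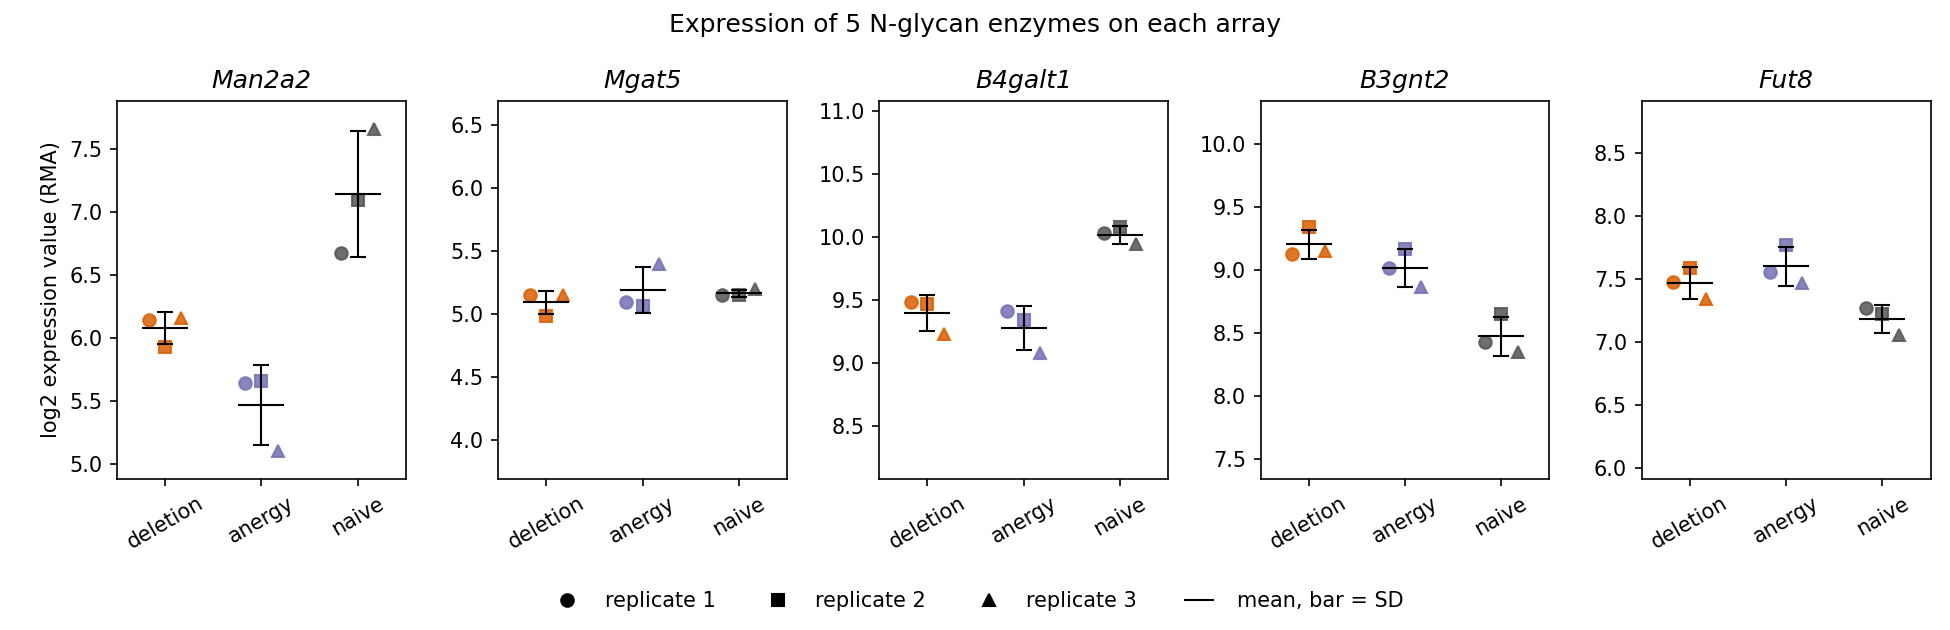
Log2 expression values of the 5 enzymes on each array, in deletion, anergy and naive cells, with the mean and SD of 3 arrays. Every panel spans the same 3 log2 units. Man2a2 and B4galt1 are highest on the naive arrays, B3gnt2 is lowest there, and the groups of Mgat5 overlap.

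Man2a2 encodes alpha-mannosidase IIx, which removes mannose residues from the chain that bears the first GlcNAc branch. Its log2 values were 6.14, 5.93 and 6.16 in deletion replicates 1 to 3, 5.64, 5.66 and 5.10 in anergy replicates, and 6.67, 7.09 and 7.66 in naive replicates. The groups did not overlap in any comparison, the naive arrays were spread most widely, and the lowest value was on anergy replicate 3. The gene was 2.09-fold lower in deletion than in naive cells (95% limits 1.46 to 2.99), with means of 6.08 ± 0.13 in deletion cells and 7.14 ± 0.50 in naive cells (SD, n = 3 each) and limma's adjusted p at 0.00813. It was 3.19-fold lower in anergy than in naive cells (2.23 to 4.56, limma adjusted p = 0.000351), with a mean of 5.47 ± 0.32 in anergy cells (SD, n = 3). Without anergy replicate 3 this difference was -1.49 on the log2 scale, against -1.67 with it, and it passed with and without that array.

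Of the changes of the 5 members, those of Man2a2 were the largest in size in each of the 3 comparisons. Its difference between deletion and naive cells was greater in size than that of 95.7% of all probe sets, and its difference between anergy and naive cells than that of 96.7%. Deletion cells held more Man2a2 than anergy cells by 0.61 ± 0.23 on the log2 scale (SE, 95% limits 0.095 to 1.12). This difference did not pass in limma over all probe sets (adjusted p = 0.220), although the groups did not overlap. Without anergy replicate 3 it was 0.43 (adjusted p = 0.482).

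Man2a1 encodes alpha-mannosidase II, which acts at the same step. It had log2 values of 8.77, 8.86 and 8.64 in deletion cells, 8.78, 8.88 and 8.62 in anergy cells and 8.62, 8.66 and 8.51 in naive cells, and these groups overlapped in part. Its difference from naive cells was 0.16 ± 0.09 in deletion cells (SE, 95% limits -0.033 to 0.35, limma adjusted p = 0.296) and 0.16 ± 0.09 in anergy cells (-0.030 to 0.36, adjusted p = 0.221). The log2 ratio of Man2a2 to Man2a1 within an array differed by -1.22 in deletion and by -1.84 in anergy against naive cells. In both, the ratios of the stimulated arrays lay below those of every naive array, and a two-sided exact permutation test gave p = 0.1, the smallest that 3 against 3 arrays allow.

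Mgat5, the branching enzyme, passed in no comparison. Its log2 values were 5.15, 4.99 and 5.15 in deletion cells, 5.10, 5.07 and 5.40 in anergy cells and 5.15, 5.15 and 5.20 in naive cells. The groups overlapped in every comparison, the highest value was on anergy replicate 3, and 4 of the 9 arrays had exactly 5.15. At least as many identical values were found in 25.8% of all probe sets of this table. The difference was -0.07 ± 0.09 in deletion against naive cells (SE, 95% limits -0.28 to 0.14, limma adjusted p = 0.758), 0.023 ± 0.09 in anergy against naive cells (-0.18 to 0.23, adjusted p = 0.899) and -0.09 ± 0.09 in deletion against anergy cells (-0.30 to 0.11, adjusted p = 0.664). These limits leave room for a change of up to 1.21-fold lower or 1.10-fold higher in deletion than in naive cells. The sign of the difference between anergy and naive cells turned to -0.082 without anergy replicate 3, so no direction is given.

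Mgat5 acts after Mgat1 and Mgat2, which start the branches of complex N-glycans. Mgat1 rose in both stimulated groups, by 0.29 ± 0.09 on the log2 scale in deletion cells (SE, limma adjusted p = 0.0479) and by 0.34 ± 0.09 in anergy cells (adjusted p = 0.0158) against naive cells. Its call held in 6 of 16 alternative settings for deletion cells and in 12 of 16 for anergy cells, and after median centring of the arrays neither passed (adjusted p = 0.121 and 0.0722). Mgat2 did not pass, at -0.10 ± 0.12 in deletion and 0.15 ± 0.12 in anergy against naive cells. Of 20 listed genes of trimming and branching, 13 were measured. In each comparison with naive cells Mgat1 was higher, Man2a2 was lower and 11 did not pass, among them Mgat3, Mgat4a, Mgat4b, Mgat4c and Mgat5b. Mgat3 (3.36 to 3.56), Mgat4a (4.12 to 4.44), Mgat4c (1.97 to 2.11) and Mgat5b (3.36 to 3.74) were dim, beside array medians of 4.44 to 4.58. Whether these dim genes were expressed was not tested, so the lack of a call does not show that they were unchanged. Among all probe sets 19% were called in deletion and 26.8% in anergy against naive cells. The median difference of the 13 was -0.013 in deletion and -0.0033 in anergy against naive cells, beside -0.020 and 0.0067 over all probe sets.

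B4galt1, a beta-1,4-galactosyltransferase that makes the lactosamine unit of the antennae, fell. Its log2 values were 9.48, 9.47 and 9.23 in deletion cells, 9.41, 9.34 and 9.08 in anergy cells and 10.03, 10.08 and 9.94 in naive cells. Every stimulated array lay below every naive array, while deletion and anergy arrays overlapped. The gene was 1.54-fold lower in deletion than in naive cells (95% limits 1.32 to 1.80, limma adjusted p = 0.00148), with means of 9.39 ± 0.14 in deletion cells and 10.02 ± 0.07 in naive cells (SD, n = 3 each). It was 1.67-fold lower in anergy cells, at 9.28 ± 0.17 (SD, n = 3), than in naive cells (1.43 to 1.95, adjusted p = 0.000339). Between deletion and anergy cells the difference was 0.12 ± 0.10 (SE, 95% limits -0.11 to 0.34, adjusted p = 0.628), and its sign turned after quantile normalization.

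Within the galactosyltransferase family the direction was mixed. B4galt5, which is known for making lactosylceramide and also galactosylates GlcNAc, had log2 values of 9.92, 9.74 and 9.63 in deletion cells, 10.17, 10.16 and 9.97 in anergy cells and 8.79, 8.90 and 8.71 in naive cells. It was 1.95-fold higher in deletion than in naive cells (95% limits 1.69 to 2.25, limma adjusted p = 3.4e-05) and 2.46-fold higher in anergy than in naive cells (2.13 to 2.84, adjusted p = 3.1e-06). The log2 ratio of B4galt1 to B4galt5 within an array differed by -1.59 in deletion and by -2.04 in anergy against naive cells. The ratios did not overlap between the groups, at p = 0.1 in the two-sided exact permutation test, its smallest value here. B4galt1 and B4galt5 each separated stimulated from naive arrays, in opposite directions. Against naive cells this outcome was therefore fixed in advance and adds no evidence to their own differences.

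B4galt3, another enzyme of lactosamine synthesis, moved the same way as B4galt1, at -0.34 ± 0.08 in deletion cells (SE, limma adjusted p = 0.00953) and -0.44 ± 0.08 in anergy cells (adjusted p = 0.00143) against naive cells. B4galt7, which acts on the linker of glycosaminoglycans, fell in anergy cells (-0.63 ± 0.14, adjusted p = 0.00702) and had -0.43 ± 0.14 in deletion cells (adjusted p = 0.0666). B4galt4 was 0.44 ± 0.14 higher in deletion than in naive cells (adjusted p = 0.0494), a call that held in 3 of 16 alternative settings. B3galt6, also an enzyme of that linker, fell in deletion cells (-0.44 ± 0.07, adjusted p = 0.00166) and in anergy cells (-0.24 ± 0.07, adjusted p = 0.0325), the second call holding in 7 of 15 settings. The filter on dim probe sets removed B3galt6, which left these 15 settings. Both B4galt4 (3.21 to 4.15) and B3galt6 (2.91 to 3.46) were dim, beside array medians of 4.44 to 4.58. B4galt2 and B4galt6 passed in no comparison, and B4galt6 was dim as well (2.59 to 2.80). Of all 13 listed galactosyltransferases, each of them measured, 2 rose, 3 fell and 8 did not pass in deletion against naive cells. In anergy against naive cells 1 rose, 4 fell and 8 did not pass. Of all probe sets, 19% passed in the first comparison and 26.8% in the second.

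**Figure D2:**
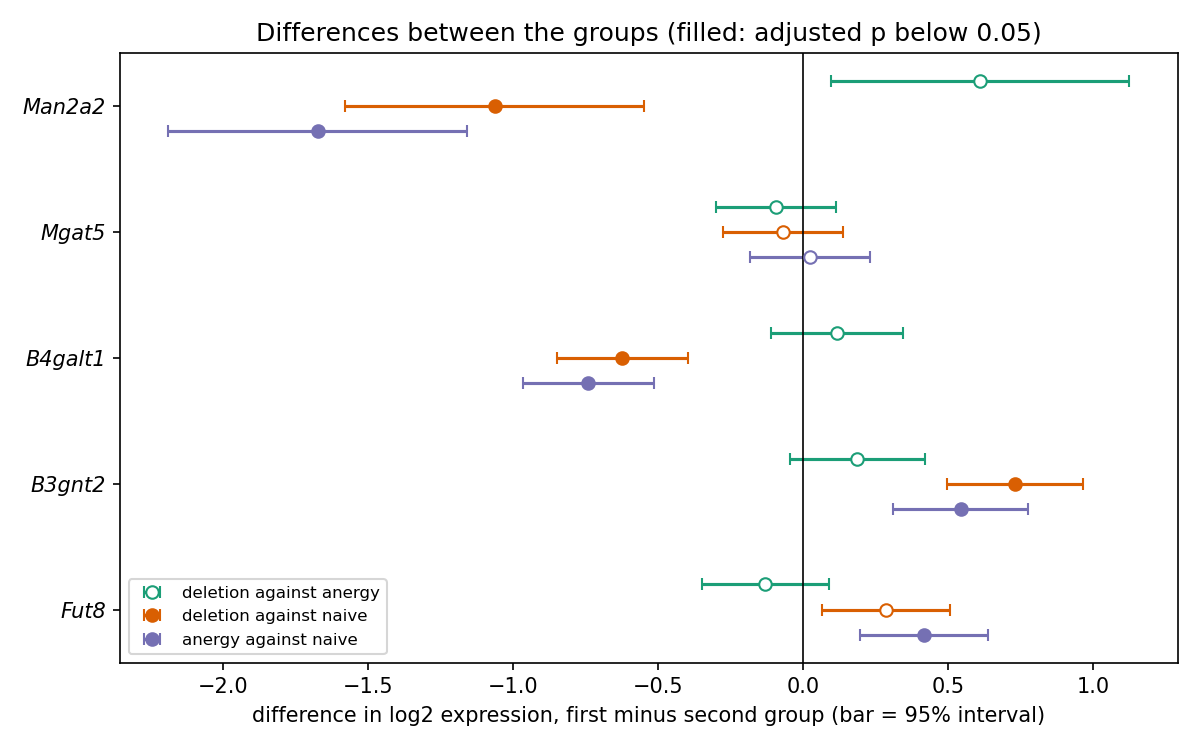
Differences in log2 expression of the 5 enzymes for deletion against anergy, deletion against naive and anergy against naive cells, with 95% intervals from limma on 3 arrays a group. Filled points have an adjusted p below 0.05. No point of deletion against anergy is filled, and the intervals of Mgat5 include 0 in each comparison.

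B3gnt2, the main enzyme that extends polylactosamine chains, rose. Its log2 values were 9.13, 9.34 and 9.15 in deletion cells, 9.02, 9.17 and 8.87 in anergy cells and 8.43, 8.65 and 8.35 in naive cells. Every stimulated array lay above every naive array, and the deletion and anergy arrays overlapped at 9.13 to 9.17. The gene was 1.66-fold higher in deletion than in naive cells (95% limits 1.41 to 1.95, limma adjusted p = 0.000627), with means of 9.21 ± 0.12 in deletion cells and 8.48 ± 0.16 in naive cells (SD, n = 3 each). It was 1.46-fold higher in anergy cells, at 9.02 ± 0.15 (SD, n = 3), than in naive cells (1.24 to 1.71, adjusted p = 0.00275). Deletion and anergy cells differed by 0.19 ± 0.10 (SE, 95% limits -0.047 to 0.42, adjusted p = 0.430). The suffix of the B3gnt2 probe set marks a set whose probes can bind more than 1 transcript, while the other 4 members carry the suffix of probes made for 1.

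The RNAs of B3gnt2 and of B4galt1, 1 of the galactosyltransferases that can make lactosamine, thus moved in opposite directions, while B4galt5 rose with B3gnt2. Which galactosyltransferase alternates with B3gnt2 in these cells was not tested. The log2 ratio of B3gnt2 to B4galt1 within an array differed by 1.35 in deletion and by 1.28 in anergy against naive cells. The ratios did not overlap in either comparison, each with p = 0.1 in the two-sided exact permutation test, the smallest possible with 3 arrays a group. Between deletion and anergy cells the ratio differed by 0.070, with overlapping groups and p = 0.5 in the same exact permutation test. Taken within replicate numbers, which deviated together in these groups, the ratio was higher in deletion than in anergy cells in 3 of 3 pairs, by 0.04, 0.04 and 0.13. Man2a2, B4galt1 and B3gnt2 were likewise higher, and Fut8 lower, in deletion cells in 3 of 3 pairs. An exact sign-flip permutation test gave p = 0.25 for each of these, the smallest that 3 pairs allow, so it could not pass. The pairs were read from these same data and not from the labels, so no difference is claimed from them.

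The promoters of B4galt1 and B3gnt2 are shown because both genes changed in every comparison with naive cells and did so in opposite directions. Windows of 300 bases, from 250 before to 50 after a RefSeq start site of the GRCm38.p6 build, were held for 4 of the 5 members. The windows lie at chr4:40853935-40854234 for B4galt1 and chr11:22859686-22859985 for B3gnt2, both on the minus strand. They are given 5′ to 3′ in lower case, with capitals on the GC box, searched as GGGCGG and, for the other strand, CCGCCC.
B4galt1: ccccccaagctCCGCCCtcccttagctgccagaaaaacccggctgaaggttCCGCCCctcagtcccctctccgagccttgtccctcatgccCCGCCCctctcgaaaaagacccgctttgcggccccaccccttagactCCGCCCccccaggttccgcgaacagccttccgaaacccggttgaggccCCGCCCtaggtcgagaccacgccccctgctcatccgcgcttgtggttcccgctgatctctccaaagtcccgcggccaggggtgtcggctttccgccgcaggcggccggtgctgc
B3gnt2: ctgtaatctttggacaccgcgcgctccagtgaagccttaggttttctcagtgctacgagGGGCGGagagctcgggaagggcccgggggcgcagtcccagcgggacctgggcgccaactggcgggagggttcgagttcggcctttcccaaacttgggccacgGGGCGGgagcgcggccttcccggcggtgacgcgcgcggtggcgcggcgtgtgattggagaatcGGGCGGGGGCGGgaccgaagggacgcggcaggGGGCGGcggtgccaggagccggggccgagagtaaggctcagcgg

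Each of these windows held 5 GC boxes, the letters bound by Sp1 and related factors. All 5 of B4galt1 read CCGCCC and all 5 of B3gnt2 read GGGCGG on the gene's strand, and a pair of those in B3gnt2 adjoin. Among all 32851 windows of this length, 35.7% held at least 1 GC box and 2.71% held 5 or more. The Mgat5 window held 1, and the 4 windows of Fut8, which has several start sites, held 1, 1, 0 and 0. The windows of B4galt1 and B3gnt2 had 26 and 37 CpG dinucleotides, beside a median of 7 over all windows. The Mgat5 window had 18, and the 4 windows of Fut8 had 39, 18, 0 and 4, so many CpG are not particular to B4galt1 and B3gnt2. Neither held the letters searched for AP-1 (TGANTCA), NFAT (TGGAAA) or ETS factors (CCGGAA) on either strand. These occur in 7.81%, 21.4% and 14.9% of all windows. Shorter forms of the NFAT and ETS letters were not searched. The motifs were searched without allowance for overlap between different motifs, and a match or its absence describes only these letters in this window.

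Related enzymes of lactosamine extension gave 2 rises, 1 fall and 6 without a call among 9 measured of 11 listed, in deletion and again in anergy cells against naive cells. Over all probe sets the shares called were 19% in deletion and 26.8% in anergy against naive cells. Beside B3gnt2 the rise was that of B3gnt5, which extends lactosylceramide in glycolipids. Its level stood 1.86-fold higher in deletion (95% limits 1.43 to 2.43, limma adjusted p = 0.00410) and 1.98-fold higher in anergy (1.52 to 2.59, adjusted p = 0.00149) than in naive cells. B3gnt9 fell, at -0.31 ± 0.07 in deletion cells (SE, adjusted p = 0.00956) and -0.47 ± 0.07 in anergy cells (adjusted p = 0.000608). B3gnt3, B3gnt4, B3gnt6 and B3gnt7 did not pass, nor did Gcnt2, which branches polylactosamine, with -0.07 ± 0.06 in deletion and -0.017 ± 0.06 in anergy against naive cells.

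**Figure D3:**
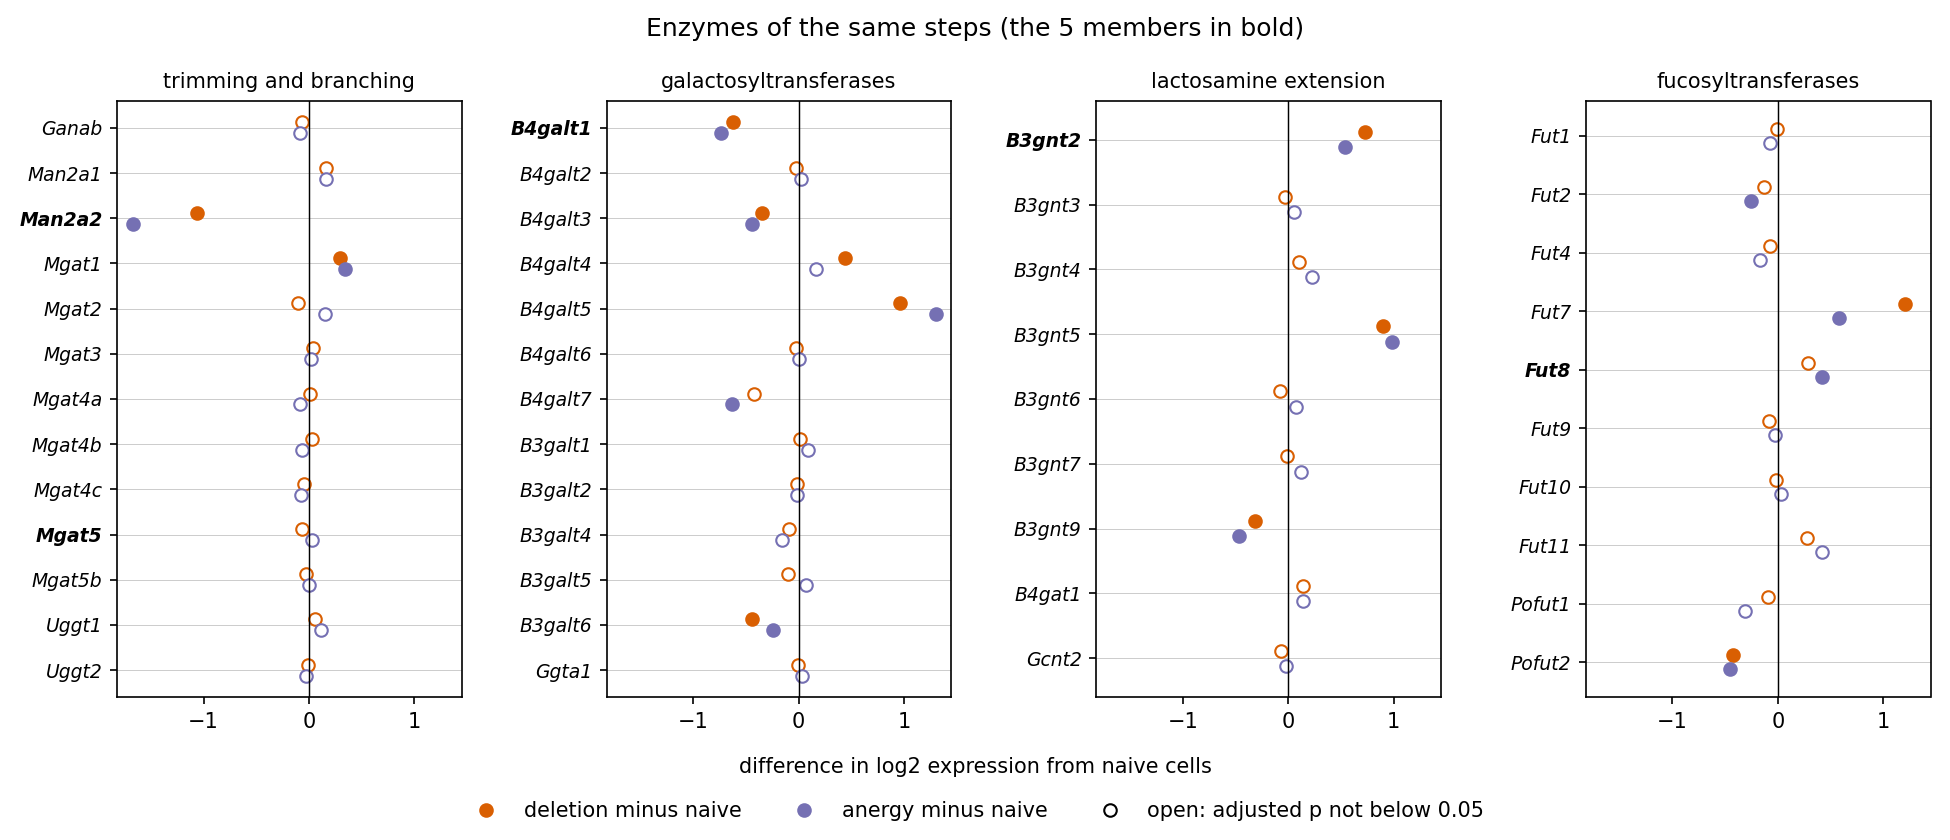
Differences in log2 expression from naive cells for the measured enzymes of 4 steps, in deletion cells and in anergy cells (filled: limma adjusted p below 0.05, n = 3 arrays a group). Man2a2 stands out to the left in trimming and branching, B4galt1 and B4galt5 lie on opposite sides of 0, and B3gnt2 and B3gnt5 lie on the right.

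Fut8, the only enzyme known to add core fucose in mammals, was higher in anergy cells. Its log2 values were 7.48, 7.59 and 7.34 in deletion cells, 7.56, 7.77 and 7.47 in anergy cells and 7.27, 7.22 and 7.06 in naive cells. Every stimulated array lay above every naive array, and deletion and anergy arrays overlapped. The gene was 1.33-fold higher in anergy cells, at 7.60 ± 0.15, than in naive cells, at 7.18 ± 0.11 (SD, n = 3 each, 95% limits 1.15 to 1.55, limma adjusted p = 0.00936). In deletion cells, at 7.47 ± 0.13 (SD, n = 3), it was 1.22-fold higher than in naive cells (1.05 to 1.42) and did not pass (adjusted p = 0.0757), though it passed in 3 of 16 alternative settings. Deletion and anergy cells differed by -0.13 ± 0.10 (SE, 95% limits -0.35 to 0.09, adjusted p = 0.571), so the call in anergy cells alone does not show that the groups differ.

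The other fucosyltransferases were counted beside Fut8. Fut7, which completes sialyl Lewis x on selectin ligands, was 2.30-fold higher in deletion than in naive cells (95% limits 1.83 to 2.90, limma adjusted p = 0.000229) and 1.49-fold higher in anergy than in naive cells (1.19 to 1.88, adjusted p = 0.0149, a call that held in 13 of 16 settings). Its difference between deletion and anergy cells was 0.63 ± 0.15 on the log2 scale (SE, adjusted p = 0.0523). It passed in 6 of 16 alternative settings, at limma adjusted p of 0.00422 to 0.0463. The lowest came with the replicate number as a block, a pairing read from these same data. Pofut2, which puts fucose on thrombospondin repeats, fell by 0.42 in deletion and by 0.45 in anergy cells on the log2 scale (adjusted p = 0.00450 and 0.00215). Of 10 listed and measured fucosyltransferases, 1 rose and 1 fell in deletion against naive cells, a share near the 19% of all probe sets, and 2 rose and 2 fell in anergy against naive cells, beside 26.8%. The second fall was that of Fut2 (-0.25 ± 0.07, adjusted p = 0.0214, held in 12 of 16 settings), which another probe set of the gene gave as -0.22 without a call. Fut2 was dim, at 3.47 to 3.85 by its brighter probe set, beside array medians of 4.44 to 4.58.

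Of 5 measured genes that supply GDP-fucose, which Fut8 uses, 1 rose, 1 fell and 3 did not pass in each comparison with naive cells. Beside these stand 19% of all probe sets called in deletion and 26.8% in anergy against naive cells. Gmds, which makes the first intermediate from GDP-mannose, reached 1.81-fold its naive level in deletion cells (95% limits 1.46 to 2.24, limma adjusted p = 0.00152) and 2.24-fold in anergy cells (1.81 to 2.79, adjusted p = 0.000140). Slc35c1, the carrier of GDP-fucose into the Golgi, lay 1.39-fold lower in deletion (1.17 to 1.65, adjusted p = 0.0111) and 1.40-fold lower in anergy (1.19 to 1.66, adjusted p = 0.00716) than in naive cells. Gfus, Fpgt and Slc35c2 did not pass.

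For UDP-GlcNAc, the donor of Mgat5 and B3gnt2, 1 gene rose and 2 fell of 8 in deletion against naive cells, with 2 and 1 in anergy against naive cells. The shares called over all probe sets were 19% and 26.8%. Uap1l1, a relative of the UDP-GlcNAc pyrophosphorylase Uap1, reached 1.96-fold its naive level in deletion cells (95% limits 1.64 to 2.35, limma adjusted p = 0.000197) and 1.74-fold in anergy cells (1.45 to 2.09, adjusted p = 0.000511). Uap1 fell in deletion cells (-0.43 ± 0.11, SE, adjusted p = 0.0228), and Gnpnat1 in both groups (adjusted p = 0.0475 and 0.0439). Slc35a3, the Golgi carrier of UDP-GlcNAc, rose in anergy cells (0.37 ± 0.11, adjusted p = 0.0367). The calls of Uap1, Gnpnat1 and Slc35a3 held in 11, 7 and 8 of 16 settings (7 for Gnpnat1 in each comparison), and after median centring 0 genes of the list fell in either comparison. For UDP-galactose, the donor of B4galt1, Galt fell in anergy cells (-0.58 ± 0.11, adjusted p = 0.00260), and by the brightest probe set of each gene it alone of 5 measured passed. The probe sets of the carrier Slc35a2 disagreed. Its brighter one gave 0.06 in deletion and 0.19 in anergy against naive cells, without a call, and its other one fell in both, at -0.38 in deletion (adjusted p = 0.0397) and -0.40 in anergy against naive cells (adjusted p = 0.0234).

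Galectins, which read these glycans, were counted as the last list. Of 8 measured, 2 rose and 0 fell in deletion against naive cells, beside 19% of all probe sets called. In anergy against naive cells 2 rose and 2 fell, beside 26.8%. Lgals1 was 7.26-fold higher in deletion cells and 8.73-fold higher in anergy cells than in naive cells (limma adjusted p = 2.1e-07 and 9.1e-08), and Lgals3 8.90-fold and 12.6-fold (adjusted p = 5.1e-07 and 1.4e-07). Lgals4 (-0.55 ± 0.10) and Lgals8 (-0.66 ± 0.10) fell in anergy cells (adjusted p = 0.00144 and 0.000604). Over the 71 genes of the 8 lists together, 10 rose and 9 fell in deletion against naive cells (26.8%, beside 19% of all probe sets), and 11 rose and 13 fell in anergy against naive cells (33.8%, beside 26.8%). The lists were chosen with earlier results of these data known, and they count only the brightest probe set of each gene. Their higher shares against naive cells are therefore not evidence about these pathways. In deletion against anergy cells 0 of the 71 passed in limma, beside 3.37% of all probe sets, and 10 had an unadjusted p below 0.05 (14.1%, beside 15.1%). With the replicate number as a block over all 9 arrays, Fut7 and B4galt5 passed there. B4galt5 had -0.34 ± 0.07 (SE, limma adjusted p = 0.0344, against 0.0858 without the block). The pairing was read from these same data, and same-numbered deletion and naive arrays did not share it. These calls are therefore not evidence from a paired design.

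The profiles most like each called member were sought among the other 908 named genes, by the root mean square difference of log2 values over the 9 arrays after each gene was centred on its mean. For Man2a2 they were Agrn (0.24), Pkd1 (0.25) and Galnt11 (0.28). For B4galt1 they were Slc35e3 (0.078), Icam2 (0.089) and Hdac5 (0.093). B3gnt2 was nearest to S100a10 (0.10), Naxe (0.11) and Dhrs1 (0.13). Fut8 was nearest to Ddost (0.050), a subunit of the oligosaccharyltransferase that starts N-glycosylation, to Tmem165 (0.074), a Golgi protein needed for normal glycosylation, and to Ddb1 (0.084). The genes searched are those of an array designed for glycosylation, and shared regulation was not tested.

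**Figure D4:**
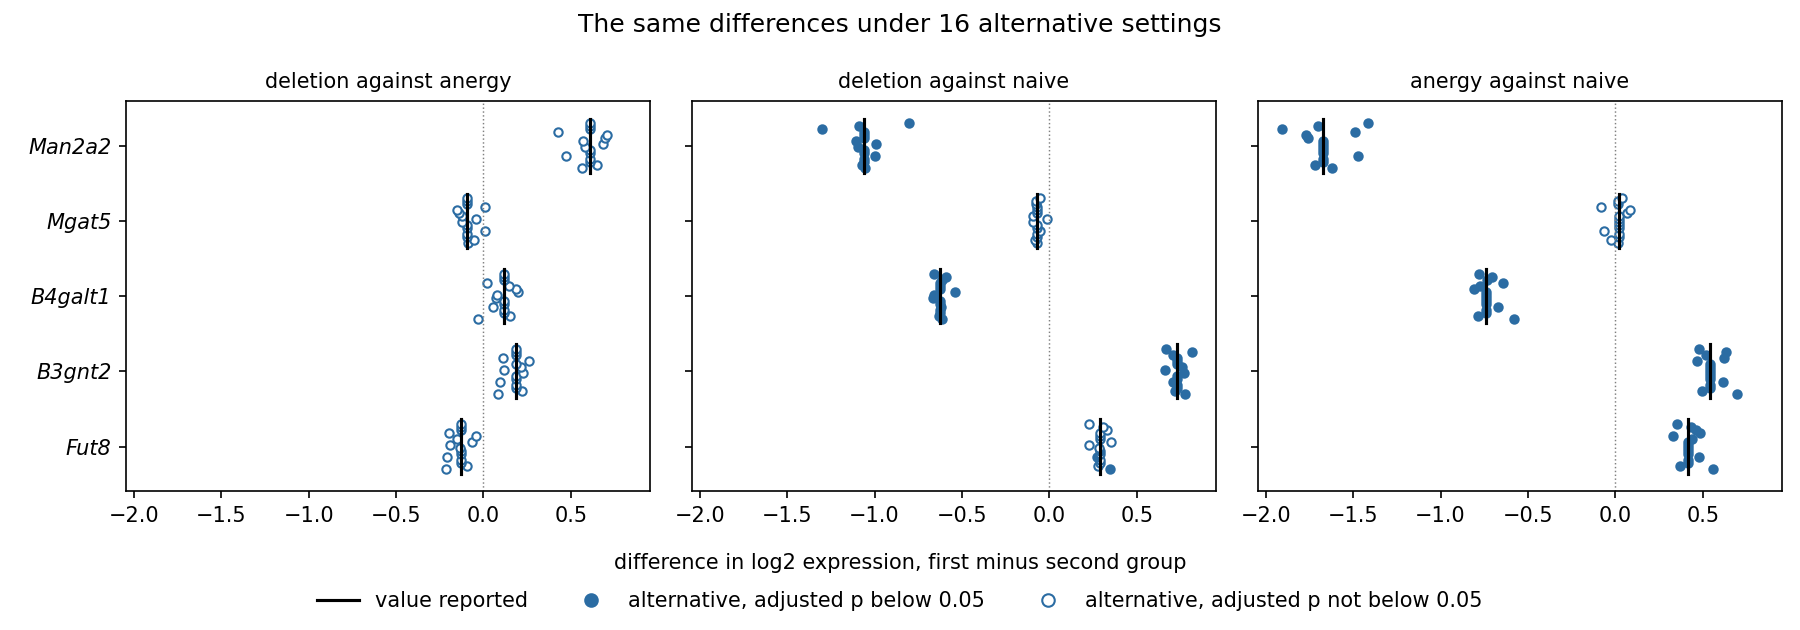
Differences in log2 expression of the 5 enzymes under each of 16 alternative settings (points, filled where the adjusted p was below 0.05) beside the value reported (vertical line), for the 3 comparisons. The points of Man2a2, B4galt1 and B3gnt2 against naive cells are all filled, and those of deletion against anergy are all open.

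All 7 calls among the members held in each of the 16 settings run. The differences of Man2a2 ranged from -1.30 to -0.80 in deletion against naive cells, and from -1.91 to -1.41 in anergy against naive cells, with the ends set by leaving out naive replicate 1 and naive replicate 3. Those of B4galt1 ranged from -0.67 to -0.54 and from -0.81 to -0.58, those of B3gnt2 from 0.66 to 0.82 and from 0.47 to 0.69 in the same comparisons, and that of Fut8 in anergy cells from 0.33 to 0.56, with a highest adjusted p of 0.0475 in limma.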

How the data were processed

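Per the labels' protocols, Trizol was used to isolate RNA, of which 0.5 micrograms went into biotinylated cRNA. The authors deposited log2 values, 1 for each probe set on each array (range 1.67 to 13.86), and the submitters' processing notes name RMA. No source used here gives a version, the array annotation or a filter. The log2 scale was read from this range and from RMA. Accessions without version were matched to a RefSeq gene table (GRCm38.p6, names only), which named 963 of 1246 probe sets (77.3%) as 909 genes. The brightest probe set stood for a gene. Promoter sequences are RefSeq's.

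Values were used as deposited, without a filter. All 9 arrays entered 1 limma fit (version 3.58.1, R 4.3.3; lmFit and eBayes), with two-sided tests, Benjamini-Hochberg adjustment over 1246 probe sets and a threshold of 0.05. The number of arrays limits the precision (median SE 0.087). The fit was tested on simulated data. Arrays of deletion and anergy cells with the same number deviated together (r = 0.195, 0.270 and 0.280), so the numbers were taken as pairs there, from the data and not the labels, and the block changed no call of a member in that comparison. Against naive arrays the correlations were -0.154 to 0.274, and the block nevertheless spanned all 9 arrays. The 5 members, the 8 gene lists and the rule for named genes (each member, list genes past the threshold, paralogs, and the 3 nearest profiles) were chosen with earlier results of these data known. Alternatives were normalization, centring, samples in the fit, a filter on dim probe sets, array weights, a variance trend, a replicate block and leaving out each array.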

Additional observations from a re-analysis of the deposited data

How the results depend on the processing

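The 7 member calls against naive cells held in all 16 settings, and 0 members were called in deletion against anergy cells in any of them. Fut8 in deletion against naive cells, not called, passed after quantile normalization (0.35 on the log2 scale), with array weights (0.27) and with a replicate block (0.29, adjusted p = 0.016), while same-numbered deletion and naive arrays did not deviate together. The block changed no other call of a member, and among pathway genes in deletion against anergy it added Fut7 and B4galt5. Signs turned, without a call, for B4galt1 in deletion against anergy after quantile normalization (-0.034), for Mgat5 in anergy against naive after median centring (-0.023) and with array weights (-0.062), and for Mgat5 in deletion against anergy with array weights (0.0075). Leaving out 1 array gave -0.082 to 0.083 for Mgat5 in anergy against naive and -0.15 to 0.012 in deletion against anergy, the sign turning in both without anergy replicate 3. The causes were not tested.

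In deletion against anergy, 26 probe sets were higher and 16 lower. The higher count was 13 after median centring, 8 in the fit of only these 2 groups, 44 with array weights and 33 with a replicate block, and the lower count was 38 after quantile normalization, 31 with array weights and 22 with the block. Leaving out 1 array gave 8 to 30 higher (8 and 14 when deletion replicates 2 and 3 were dropped, 15 and 17 when anergy replicates 2 and 3 were) and 12 to 19 lower. After quantile normalization 32 were higher and after median centring 13 were lower. The median difference of all probe sets between deletion and anergy cells was -0.011 after quantile normalization and 0.027 after median centring. Settings for the pathway genes and lists, and the differences within replicate pairs, were added after the data were seen. Among pathway genes, in deletion against anergy, Fut7 passed in 6 of 16 settings, B4galt5 in 4, Gmds in 3 and Galk1 and Lgals8 in 2 each. Averaging all probe sets of a gene was not run for the members, which have 1 each. Signal over background was not analysed here.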
